A study of Mus musculus with 2 samples.

Results

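The E proteins and their Id inhibitors are 7 genes in the mouse: the E protein genes Tcf3, Tcf4 and Tcf12 and the Id genes Id1, Id2, Id3 and Id4. They were chosen by name, not by a rule on their values, out of 21911 protein-coding genes of GENCODE M21 on mm10. Earlier results of these data were known when they were chosen. Chromatin was measured by DNase-seq, in which the enzyme DNase I cuts accessible DNA and the cut ends are sequenced. The tissue came from male B6CASTF1/J mice of 14 days, first-generation hybrids of the strains C57BL/6 and CAST/EiJ. The labels describe it as a hippocampal layer but name none. There was a single group with 2 biological replicates and no control group. The labels speak of 3 males, give both replicates the same donor, and leave open how the animals were divided between the libraries. The spread given here is therefore that between these 2 libraries.

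E proteins are basic helix-loop-helix (bHLH) transcription factors present in many cell types. They bind the E-box, written CANNTG, as pairs with each other or with tissue-restricted class II bHLH factors such as the NeuroD and Ascl proteins. Id proteins have the helix-loop-helix but lack the basic DNA-binding region, so they hold E proteins in pairs that cannot bind DNA. In the brain, class II factors drive neuronal and oligodendrocyte differentiation, Id genes are classical targets of BMP signals acting through SMAD proteins, and Tcf4 is the gene mutated in Pitt-Hopkins syndrome in humans.

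Each replicate had its own list of peaks, 115072 in replicate 1 and 95711 in replicate 2, and its own list of footprints, 285181 and 244137. A peak is a stretch of frequent cutting, and its signal is the authors' own value per peak, whose normalization is not stated. A footprint is a short stretch inside open chromatin that is protected from cutting, with a median width of 9 bp in each replicate. The files used here give no read depth. Peaks of the same or different replicates that overlapped by at least 1 bp were joined into 1 open site, and a site was called shared when both replicates had a peak in it. Over the 69706 shared sites of the genome the median ratio of replicate 2 to replicate 1 was 1.14, with 10% of sites below 0.812 and 10% above 1.46. A promoter reached 1 kb to each side of every annotated start of transcription. Promoter peaks in both replicates were found at 7 of 7 hippocampal neuron markers, 4 of 6 astrocyte, 3 of 5 oligodendrocyte lineage, 2 of 3 interneuron, 1 of 4 microglia and 1 of 4 endothelium markers. The share over all protein-coding genes was 64.3%, close to that of the astrocyte, oligodendrocyte and interneuron markers. They were also found at 2 of 6 genes of other tissues, Alb and Ckm, at means of 0.188 and 2.29. Whole tissue was measured, so more cells with an open site cannot be told apart from a more open site per cell.

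All 7 genes had a peak at their promoter in each replicate, as did 64.3% of all protein-coding genes. The highest was at Id2, with a signal of 5.20 in replicate 1 and 5.70 in replicate 2 (mean 5.45 ± 0.349, SD, n = 2). Tcf3 followed with 4.53 and 4.36 (4.45 ± 0.121). The replicate ranges of these 2 genes overlapped neither with each other nor with any of the other 5. Tcf4 had 3.32 and 4.01 (3.66 ± 0.491), but these are 2 different peaks, the internal promoter at 250 kb in replicate 1 and the first promoter in replicate 2. Taken peak by peak, the internal one had 3.32 and 3.95 and the first 2.86 and 4.01. Id1 had 2.72 and 3.67 (3.20 ± 0.669). Tcf12 had 2.81 and 3.36 (3.08 ± 0.390). The replicate ranges of these 3 genes overlapped with one another. Tcf4 was the highest of the 3 in each replicate. Id1 and Tcf12 changed places between the replicates, so the order of these 2 was not resolved. Id4 had 2.31 and 3.46 (2.89 ± 0.815), and Id3 was the lowest with 1.99 and 2.71 (2.35 ± 0.509), although with promoters of 500 bp either side Id1 was lower, at a mean of 1.49. The range of Id4 overlapped with those of Id3, Tcf4, Id1 and Tcf12. That of Id3 lay below those of Tcf4 and Tcf12 and all but touched that of Id1.

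Among the 14098 genes whose promoter was open in both replicates, the median of the mean signal was 2.86, and the middle 50% lay between 1.56 and 4.35. Id2 ranked 1746 (percentile 87.6) and Tcf3 ranked 3344 (percentile 76.3). The other members lay inside the middle 50%, from percentile 40.3 for Id3 to 64.0 for Tcf4. Replicate 2 had the higher promoter signal in 6 of the 7 genes, with ratios from 1.09 for Id2 to 1.50 for Id4. At Tcf3 the ratio was 0.962. The median ratio over all shared sites of the genome was 1.14.

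**Figure D1:**
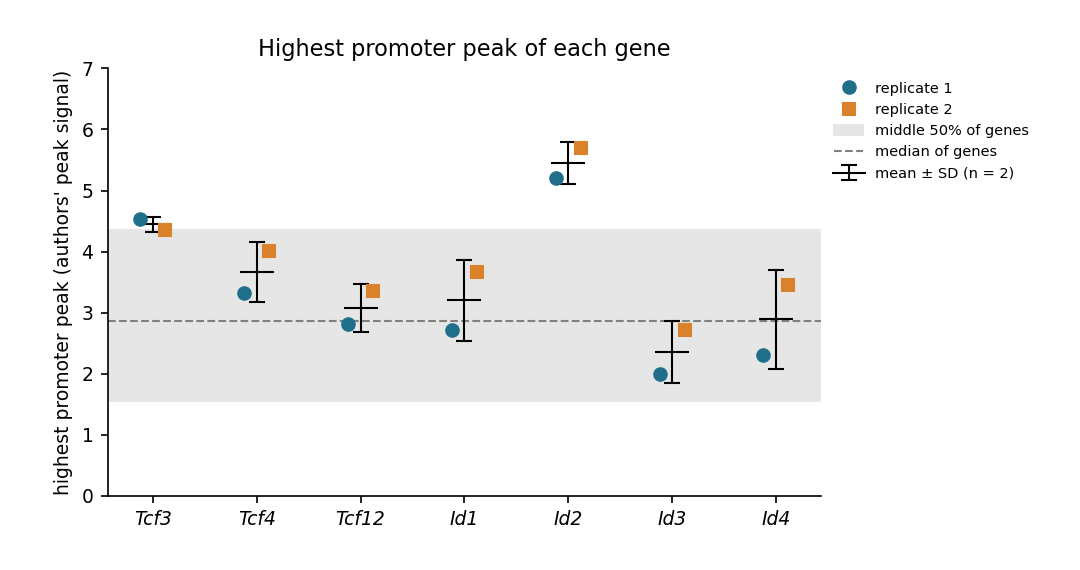
Signal of the highest promoter peak of each gene (vertical axis, the authors' value per peak) in replicate 1 (circles) and replicate 2 (squares), with the mean and SD of the 2 replicates. At Tcf4 the 2 points are different peaks. Grey marks the middle 50% of genes whose promoter was open in both replicates, 1.56 to 4.35, and the dashed line their median of 2.86. Id2 and Tcf3 lie above the grey band, and the other 5 genes inside it.

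In the gene bodies with 10 kb added either side, the 7 genes held 134 open sites, of which 60 were shared (44.8%), 50 were seen in replicate 1 alone and 24 in replicate 2 alone. Over the genome, 53.9% of 129257 sites were shared. The members did not behave alike: 21 of 32 sites of the Id genes were shared (65.6%), against 39 of 102 of the E protein genes (38.2%). The low figure came from Tcf4 alone, where 29 of 89 sites were shared, since 4 of 6 were shared at Tcf3 and 6 of 7 at Tcf12. The sites that were not shared were weaker, with a median signal of 0.424 in replicate 1 and 0.493 in replicate 2, than the shared sites, with medians of 1.13 and 1.42. The same held for the genome, with 0.382 and 0.424 against 0.834 and 0.905.

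**Figure D2:**
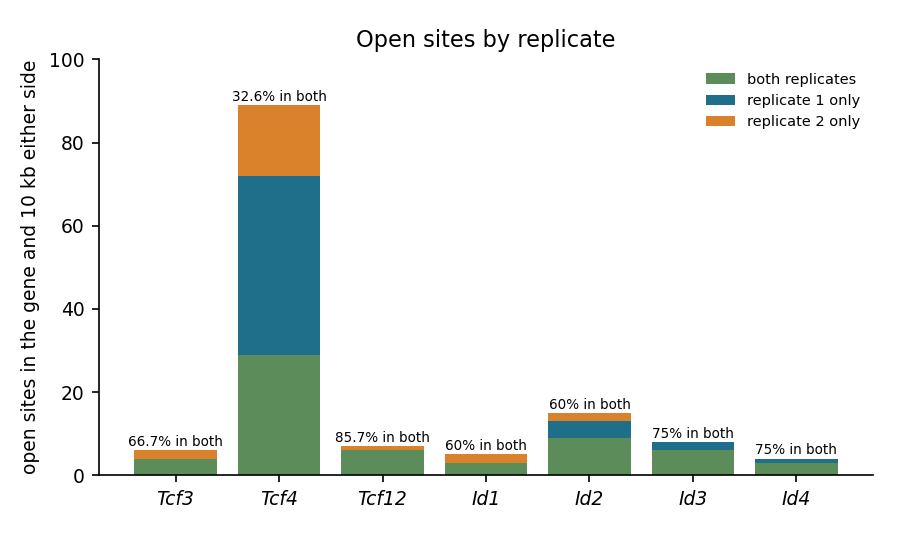
Number of open sites in each gene and 10 kb either side (vertical axis), split into sites with a peak in both replicates and in 1 replicate alone. Tcf4 holds 89 of the 134 sites, and 32.6% of its sites were shared, against 60.0% to 85.7% in the other 6 genes.

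Outside promoters the 7 genes held 33 shared sites: 19 at Tcf4, 5 at Id2, 4 at Id3, 3 at Tcf12, 1 each at Tcf3 and Id1, and 0 at Id4. A protein-coding gene had a median of 1, and the 90th percentile was 4. Read per length of region, the order changed. Id2 had 21.4 shared sites outside promoters per 100 kb, at percentile 99.8 of all protein-coding genes, whose median was 1.08, and Id3 was at percentile 99.6. Tcf4 had 5.20 per 100 kb and Id1 4.73, Tcf3 had 2.27, and Tcf12, whose region of 289 kb is nearly as long as that of Tcf4, had 1.04. Peaks of replicate 1 and replicate 2 covered 20.3% and 13.5% of the Id2 region, but 0.494% and 0.751% of the Tcf12 region. The order per length is that with 10 kb either side. In the gene bodies alone Id2 and Id3 had 0 shared sites outside promoters. With 50 kb either side Id2 had 6, Id1 had 7 and Id3 had 8.

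Tcf3 encodes the E proteins E12 and E47, products of alternative splicing of its bHLH exons. The gene lies on the minus strand of chromosome 10 at 80409514 to 80433647 and has 14 annotated transcripts. Merging start sites within 500 bp of each other gave 5 start-site clusters. Only the first, used by 8 coding transcripts, had a peak, the promoter peak at 80433621 to 80434260 with 14 footprints in replicate 1 and 11 in replicate 2. The cluster at 2.61 kb, with 3 coding transcripts, and those at 11.8, 17.4 and 18.2 kb had no peak within 1 kb in either replicate. Of the promoter peaks, 1 was seen in replicate 2 alone, at 0.954. The single shared site outside promoters lay 20.2 kb into the gene at 80413281 to 80413520 and overlapped an exon, with signals of 2.38 and 2.50. A neighbouring site at 20.7 kb was seen in replicate 2 alone, at 0.766. The other shared sites of the region were promoters of neighbours, Mbd3 at 5.86 and 7.08, and Uqcr11 at 2.60 and 3.59. Mbd3 encodes a NuRD subunit and Uqcr11 a subunit of respiratory complex III.

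The printed sequences are the mm10 reference, which is C57BL/6J, so the CAST/EiJ allele of these hybrid mice is not shown. Those of Tcf3 are given because they hold both E-boxes of its shared sites that were near a footprint in both replicates. The first is the intronic portion of the internal site, chr10:80413338-80413520, and the second part of the promoter peak, chr10:80433671-80433820, both on the minus strand, which is that of the gene. In the first, capitals mark the E-box within 5 bp of a footprint in both replicates, and in the second, bases inside footprints of both replicates.
Tcf3 internal site: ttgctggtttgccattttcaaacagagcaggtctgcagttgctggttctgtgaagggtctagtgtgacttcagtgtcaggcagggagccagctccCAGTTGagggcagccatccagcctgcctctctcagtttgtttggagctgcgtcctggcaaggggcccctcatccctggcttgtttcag
Tcf3 promoter: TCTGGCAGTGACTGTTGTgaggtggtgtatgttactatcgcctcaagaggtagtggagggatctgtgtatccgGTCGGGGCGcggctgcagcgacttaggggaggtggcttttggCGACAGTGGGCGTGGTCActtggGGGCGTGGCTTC
The internal window holds 2 matches to CAGTTG, and the capitals mark the 1 that was near a footprint in both replicates. The promoter window holds 1 E-box, CACTTG on this strand, which spans the edge of the third capital stretch.

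Tcf12 encodes the E protein HEB. It lies on the minus strand of chromosome 9 at 71842688 to 72111871 and has 21 transcripts in 7 start-site clusters. The first 3 clusters, all within 2.15 kb, had peaks in both replicates, with highest signals of 2.81 and 3.36, 1.42 and 2.25, and 0.919 and 1.36. Neighbouring clusters can share a peak. The 4 internal clusters, at 111, 189, 216 and 227 kb, had none in either replicate, among them 3 coding transcripts that would start inside the gene. Its 3 shared sites outside promoters were all intronic and weak. The strongest, at 136 kb, had 1.14 and 0.986, the next, at 152 kb, had 0.665 and 0.628, and the last, at 214 kb, had 0.530 and 0.505. A 4th intronic site was seen in replicate 2 alone, at 0.391. Part of its strongest promoter peak, chr9:72111881-72112000 on the minus strand, is shown to set its base composition beside that of Tcf3, with capitals for bases inside footprints of both replicates.
Tcf12 promoter: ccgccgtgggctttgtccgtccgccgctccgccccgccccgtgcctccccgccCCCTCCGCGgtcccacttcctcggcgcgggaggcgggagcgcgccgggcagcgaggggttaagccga
It is 80.0% G and C, holds the GC box GGGCGG 2 times (counted on both strands and without overlapping matches, as all words here) and no E-box. The Tcf3 promoter window is 60.0% G and C and holds no GGGCGG. These counts are of the printed windows alone. In the 300 bases of the RefSeq promoter around each window, Tcf3 and Tcf12 each held GGGCGG 3 times and 1 E-box.

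Id2 had the strongest promoter and, with 10 kb added either side, the densest set of open sites. The gene lies on the minus strand of chromosome 12 at 25093799 to 25097140, with start sites at 25097140 and, 1.05 kb further in, at 25096087 and 25096092. The strongest peak, 5.20 and 5.70, was at the inner start sites, at 25095961 to 25096440, with 10 and 7 footprints. The annotated outer start had weaker peaks upstream of it, 0.615 and 0.791 at -0.261 kb and 0.799 and 0.823 at -0.861 kb, where negative distances are upstream. Of the 15 open sites of the region 9 were shared, and replicate 2 was the higher in 8 of these 9. Their median ratio of replicate 2 to replicate 1 was 1.28, beside 1.14 over all shared sites of the genome. The strongest shared site outside promoters lay downstream of the gene, 4.70 kb from the outer start, at 25092341 to 25092540, with 3.42 and 4.17 and with 5 and 3 footprints. The next lay upstream at -1.69 kb, at 25098601 to 25099060, with 2.55 and 3.31 and with 13 and 10 footprints. A further site at -3.81 kb had 1.12 and 1.43. All 6 sites seen in 1 replicate alone lay outside promoters, 4 in replicate 1 and 2 in replicate 2.

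The sequences of the upstream site, chr12:25098941-25099060, and of the strongest promoter peak, chr12:25096261-25096410, are shown on the minus strand, that of the gene, because they carry a footprinted E-box and the footprints of the strongest promoter of the 7 genes. Capitals mark the E-box within 5 bp of a footprint in both replicates in the first, and bases inside footprints of both replicates in the second.
Id2 upstream site: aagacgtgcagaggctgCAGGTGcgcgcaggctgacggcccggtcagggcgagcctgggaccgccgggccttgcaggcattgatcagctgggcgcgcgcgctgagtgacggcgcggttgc
Id2 promoter: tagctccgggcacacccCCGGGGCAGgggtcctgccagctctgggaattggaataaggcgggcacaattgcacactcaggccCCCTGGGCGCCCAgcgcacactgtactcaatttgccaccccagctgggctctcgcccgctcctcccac
The second capital stretch of the promoter, 13 bases at 25096316 to 25096328, holds GGCGCC, a word bound by SMAD1 and SMAD5 in BMP-responsive genes. The promoter window also holds 2 E-boxes, neither of them in capitals.

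Id1 lies on the plus strand of chromosome 2 at 152736251 to 152737410, and both of its transcripts start at the same base. Its strongest promoter peak was not at that start. The peak at 152735101 to 152735300, centred at -1.05 kb and overlapping the edge of the promoter window, had 2.72 and 3.67. All 3 of its footprints in replicate 1 were shared with replicate 2, which had 4. The peak at the start itself, at 152736101 to 152736580, had 1.26 and 1.73 and held 8 and 4 footprints. With a promoter of 500 bp either side, the highest promoter signal of Id1 was accordingly 1.49 in place of 3.20. The central 200 bp of the upstream peak held GTCTG, the SMAD half-site, 3 times and GGCGCC 1 time, together with 1 E-box, CAGCTG, and 1 GGGCGG. A promoter peak 0.781 kb into the gene was seen in replicate 2 alone, at 0.595. Outside promoters there was 1 shared site, 6.38 kb downstream of the start, at 0.891 and 0.815.

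Id3 lies on the plus strand of chromosome 4 at 136143497 to 136145755 and had the lowest promoter signal with promoters of 1 kb either side. Its promoter peak at 136143621 to 136144000 had 4 and 6 footprints. Around it stood 4 shared sites, of which 3 were upstream: 0.870 and 0.840 at -8.68 kb, 1.70 and 1.60 at -8.16 kb, and 1.53 and 2.06 at -3.00 kb. The downstream site, 4.51 kb from the start, had 1.21 and 1.60. None of them reached the promoter signal of its own replicate. The small nuclear RNA gene Gm26001, which starts in the upstream flank, had a promoter peak in replicate 1 alone, at 0.629. The sequence of the site at -3.00 kb, chr4:136140408-136140557 on the plus strand, is shown because its footprints recurred in both replicates, in bases marked by capitals.
Id3 upstream site: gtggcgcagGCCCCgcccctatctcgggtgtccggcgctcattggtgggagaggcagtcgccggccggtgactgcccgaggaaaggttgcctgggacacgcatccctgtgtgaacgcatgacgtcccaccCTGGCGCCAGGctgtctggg
The longer capital stretch, 11 bases at 136140538 to 136140548, holds GGCGCC, as the Id2 promoter stretch did. The window also holds 1 GTCTG and 1 GC box. It holds 1 CCAAT box, 1 match to the CREB half-site TGACG and no E-box. The central 200 bp of the site, which reach beyond the printed window, held 1 E-box, CAGCTG.

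Id4 lies on the plus strand of chromosome 13 at 48261228 to 48266026, with a single transcript. The peak at 48260741 to 48261180, just upstream of the start, had 2.31 and 3.46, the widest relative difference between replicates among the 7 promoters, and 8 and 10 footprints. Next to it a site of 1760 bp covered the first part of the gene at 0.806 and 1.28 and held 0 footprints in either replicate. That site also lies at the start sites of the long non-coding genes A330033J07Rik and Gm49291, which run the opposite way, so its signal cannot be assigned to 1 of these genes. No shared site lay outside promoters. The promoter of the non-coding A330048O09Rik, 12.7 kb from the Id4 start, had 1.21 and 0.946. Part of the upstream peak, chr13:48260991-48261140 on the plus strand, is shown because 4 stretches in it lay inside footprints of both replicates, marked by capitals.
Id4 promoter: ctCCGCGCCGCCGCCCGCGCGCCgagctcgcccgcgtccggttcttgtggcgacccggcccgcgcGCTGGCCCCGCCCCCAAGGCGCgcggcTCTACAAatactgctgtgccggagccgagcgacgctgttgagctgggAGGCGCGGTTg
The stretches of 21 and 22 bases each hold a GC box, GGGCGG read on the other strand. The window holds no E-box.

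Tcf4 stood apart from the other members in number of sites and in their variation between replicates. It lies on the plus strand of chromosome 18 at 69343356 to 69689079, spans 346 kb and has 62 annotated transcripts with 58 start sites, which fell into 18 clusters. Of these 9 had a peak in both replicates. Over the E protein genes it was 13 of 30 clusters, and over all protein-coding genes with 2 or more clusters it was 34.2%. The open clusters of Tcf4 formed 3 groups. The first 5 clusters, from 0 to 5.24 kb, served 21 coding transcripts and had their strongest peak at 69344141 to 69344560, with 2.86 in replicate 1 and 4.01 in replicate 2. Clusters at 156 and 157 kb, with 5 coding transcripts, were weaker, at 1.20 and 1.01 and at 1.05 and 1.18. Clusters at 250 and 251 kb, with 6 coding transcripts, shared a peak at 69593261 to 69593640 with 3.32 and 3.95. The first group and this internal group differed by less than the spread of the replicates, at means of 3.44 ± 0.811 and 3.64 ± 0.451 (SD, n = 2).

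The other 9 start-site clusters of Tcf4 were not open in both replicates. The cluster at 178 kb, with 9 transcripts of which 6 are coding, had a peak of 1.05 that replicate 2 lacked. That at 220 kb had 0.870 in replicate 1 alone. Those at 336 and 339 kb had 0.620 and 0.758 in replicate 2 alone. The clusters at 72.5, 176, 256, 269 and 313 kb had no peak in either replicate, including the cluster at 176 kb with 5 coding transcripts. In all, 23 sites lay at Tcf4 promoters, of which 10 were shared, 7 were seen in replicate 1 alone with signals of 0.530 to 1.05, and 6 in replicate 2 alone with 0.424 to 0.758.

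Of the 19 shared sites of Tcf4 outside promoters, 14 were intronic, 4 lay in the downstream flank and 1 overlapped an exon. Their median signal was 0.955 in replicate 1 and 1.30 in replicate 2. The strongest by mean was at 69576321 to 69576680, 233 kb from the first start, with 2.52 and 2.80. The next was at 69507901 to 69508080, at 165 kb, with 2.16 and 2.99, and it held a footprinted E-box, CACATG. Close behind was a site at 174 kb with 2.47 and 2.41. No shared site lay in the 10 kb upstream of the gene.

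Neighbouring sites of Tcf4 tended to be missing from the same replicate. The longest run was of 20 consecutive sites seen in replicate 1 alone, over 43.2 kb from 6.25 to 49.5 kb of the first start, with signals of 0.120 to 0.544. Replicate 1 had 28 footprints there and replicate 2 had 0, and stretches with a cut-rate false discovery rate under 0.05 covered 7753 bp in replicate 1 and 65 bp in replicate 2. A second run of 8 sites in replicate 1 alone covered 16.7 kb from 178 kb, with stronger signals of 0.629 to 2.29, and with 23 footprints against 0. A run of 8 sites in replicate 2 alone covered 8.79 kb from 332 kb, with 0.310 to 0.758 and 0 footprints in replicate 1 against 18. Among the 774 protein-coding genes with at least 20 sites the median longest run was 4, and Tcf4 lay at percentile 98.6. A gene with more sites has more room for a long run, and these genes were not matched to the 89 sites of Tcf4. In share of sites found in both replicates it lay at percentile 14.5, where the median gene had 47.8%. Outside the 3 runs, which were singled out after their values were seen, 29 of 53 Tcf4 sites were shared (54.7%). Such runs hold no shared site by definition, so leaving them out could only raise this share. Only 1 of the 43 sites of replicate 1 alone had any stretch under that rate in replicate 2. The part of library quality or of the animals used in these runs was not tested.

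**Figure D3:**
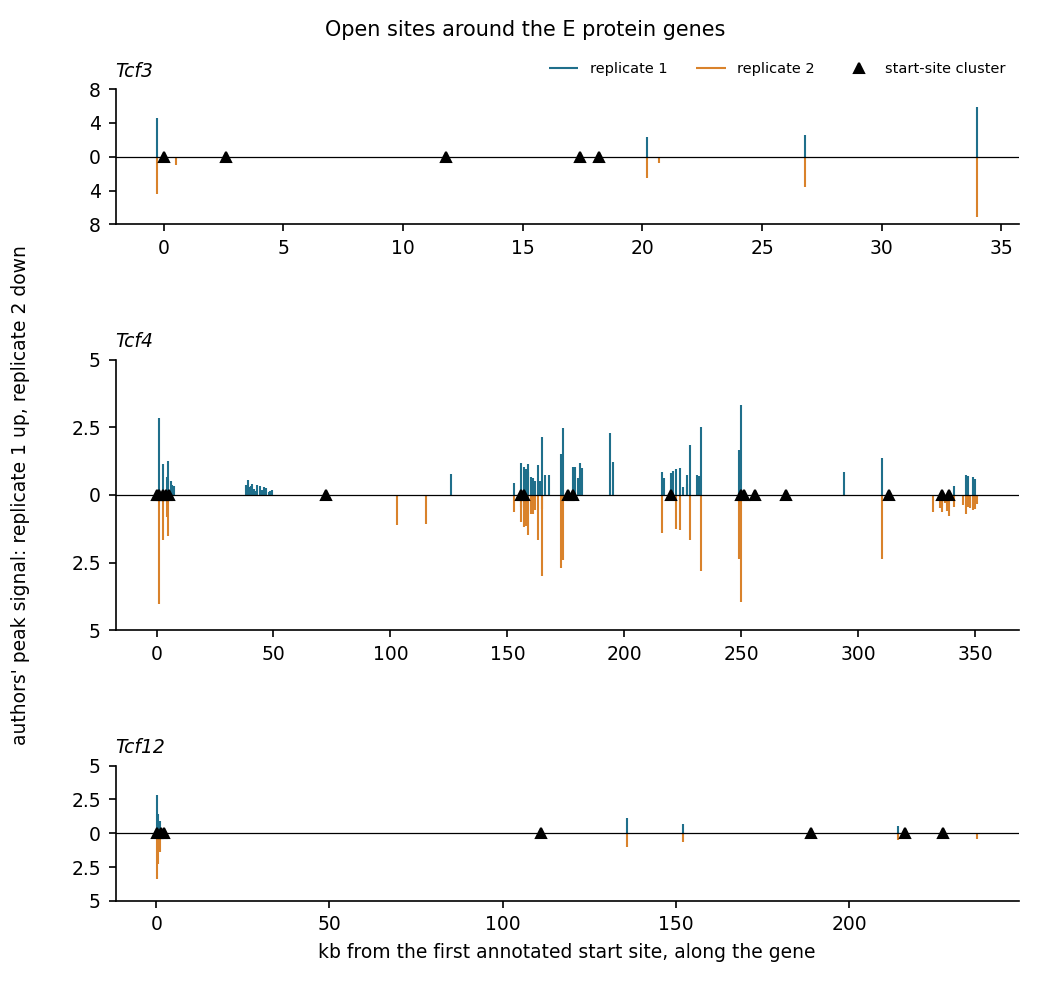
Open sites around Tcf3, Tcf4 and Tcf12 by distance from the first annotated start site in kb (horizontal axis). Lines give the authors' peak signal in replicate 1 (up) and replicate 2 (down), and triangles mark start-site clusters. Tcf4 shows groups of lines in 1 direction alone, the longest from 6.25 to 49.5 kb, and Tcf12 shows shared peaks at its first clusters and 3 weak shared sites far inside the gene.

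The promoters of the 7 genes held 123 footprints in replicate 1 and 109 in replicate 2. A footprint of replicate 1 was counted as shared when footprints of replicate 2 covered at least 50% of it, which held for 47 of the 123 (38.2%). Over all footprints of replicate 1, in promoters and elsewhere, it was 31.8%, so these are unlike sets. Every member had at least 1 shared promoter footprint, as did 58.2% of protein-coding genes. The counts were 12 at Tcf4, 9 at Tcf3, 7 each at Tcf12 and Id2, 5 at Id4, 4 at Id1 and 3 at Id3. The share was 64.3% at Tcf3 (9 of 14) but 23.1% at Tcf4 (12 of 52), whose runs of sites in 1 replicate include promoters. Over the whole regions, 95 of the 316 footprints of replicate 1 were shared (30.1%), close to the 31.8% of all footprints.

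E-boxes were looked for in these footprints with 5 bp added either side. In replicate 1, 26 of the members' 316 footprints held CANNTG (8.23%, exact 95% binomial interval 5.45 to 11.8), against 10.8% of all footprints. In replicate 2 it was 24 of 250 (9.60%, 6.25 to 13.9) against 9.91%. The intervals, which cover counting error only, included the genome's share in both replicates. The order of the genes was not stable. In replicate 1 the highest share was at Id2, 7 of 47 (14.9%, 6.20 to 28.3). In replicate 2 Id2 had 4 of 37 (10.8%, 3.03 to 25.4), below Id1 with 2 of 10 (interval 2.52% to 55.6%) and Tcf4 with 13 of 117 (11.1%, 6.05 to 18.3). E-boxes near a footprint in both replicates were then counted inside shared sites only. There were 9: 5 at Tcf4, 2 at Tcf3, 2 at Id2, and 0 at Tcf12, Id1, Id3 and Id4. Of these, 4 lay at promoters and 5 elsewhere. Their cores, read on either strand, were CAAGTG 3 times, CACATG and CACCTG 2 times each, and CAACTG and CAGCTG 1 time each. A match is a sequence word and says nothing of which factor was bound.

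Sequence words were then counted in the open sites of the Id and the E protein genes, without a test of the difference. All shared sites of the regions were counted, so the Id sites include the promoter of A330048O09Rik, and the E protein sites those of Mbd3 and Uqcr11. In the central 200 bp of the shared sites, 12 of 21 Id sites (57.1%) and 25 of 39 E protein sites (64.1%) held CANNTG, against 68.3% of the 69706 shared sites of the genome. The cores were not spread alike. CAGCTG was in 8 of 21 Id sites (38.1%), 3 of 39 E protein sites (7.69%) and 18.5% of all sites. CAGATG, a core of NeuroD factors, was in 0 of 21 Id sites, 8 of 39 E protein sites (20.5%), all of them at Tcf4, and 20.9% of all sites. Of the SMAD words, GGCGCC was in 8 of 21 Id sites (38.1%), 3 of 39 E protein sites (7.69%), 1 of them the Uqcr11 promoter, and 8.64% of all sites. GTCTG was at background, in 10 of 21 (47.6%), 17 of 39 (43.6%) and 42.8%. The palindrome GTCTAGAC was in none of the 60 sites and in 0.146% of all.

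The Id sites were also richer in G and C, with a median of 60.0% at Id2 to 66.5% at Id3, against 53.5% over all shared sites and 51.0% at Tcf4. At least 60% G and C was found in 15 of 21 Id sites (71.4%) and in 25.6% of all shared sites. Among sites of that composition, GGCGCC was in 7 of 15 Id sites (46.7%), 2 of 8 E protein sites (25.0%) and 21.2% of all. The Id and E protein genes lay closer than without regard to composition, and the Id share was above that of all sites. A single cut at 60% does not match composition among the sites above it, so the part of composition was not tested. Of these 8 E protein sites, 1 is the promoter of the neighbour Mbd3. CAGCTG was in 6 of 15 (40.0%), 0 of 8 and 15.5%, so its gaps did not narrow. CAGATG was in 0 of 15, 0 of 8 and 8.63%. The Id share was 0 with and without the cut, while that of all sites fell from 20.9%. The E protein share, 20.5% without the cut and near that of all sites, was 0 with it. The GC box GGGCGG was in 10 of 15 (66.7%), 4 of 8 and 54.7%, a smaller gap than without regard to composition, where it was in 11 of 21 (52.4%) and 19.6%. These sites lie in 4 genes and are not independent, and no test was made.

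RefSeq promoters, 250 bases before to 50 after a start on GRCm38.p6, were matched for 5 of the 7 genes, giving 7 promoters. GGGCGG was in 6 of the 7, against 35.7% of 32851 promoters. The exception was the third RefSeq promoter of Tcf12, which lies inside the gene at 71896047 to 71896346 and had no peak. CANNTG was in 5 of the 7, against 72.3%, and the promoters of Id3 and Id4 had none.

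Genes that work with the members were read by the same promoter measure. Of 14 class II bHLH genes of neural cells, 9 had an open promoter in both replicates (64.3%), 1 in a single replicate and 4 in neither, the same share as the 64.3% of all protein-coding genes. Their median mean signal was 1.59, below the 2.86 of all genes and the 3.20 of the members. Every one of the 9 was below the all-gene median. Neurod2, of maturing excitatory neurons, had 2.47 and 2.91. Neurod1, of dentate granule neurons, had 1.99 and 2.05, and Neurod6, of pyramidal neurons, had 1.73 and 1.76. Atoh1, of cerebellar granule precursors, had 0.530 in replicate 2 alone, and Neurod4, Olig3 and Nhlh1 had no promoter peak.

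Of 16 class II genes of other tissues, 4 had an open promoter in both replicates (25.0%), 7 in a single replicate and 5 in neither, with a median of 0.782. The strongest was Tal1, of blood precursors, at 1.18 and 1.66, followed by Msc at 0.728 and 0.995 and Twist2 at 0.523 and 0.881. Myf6 at 0.346 and Lyl1 at 0.764 were seen in replicate 1 alone and Tal2 at 0.457 in replicate 2 alone. The muscle regulators Myod1, Myf5 and Myog had none.

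Of the 6 Hes and Hey repressors, effectors of Notch, 5 had an open promoter in both replicates (83.3%, against 64.3% of all genes), with a median of 3.12. Hey2 had 5.13 and 6.04, Hey1 had 4.05 and 5.42, and Hes6 had 2.78 and 3.46, whereas Heyl had none. The replicate ranges of Hey2 and Id2 overlapped, at means of 5.59 and 5.45.

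Of 21 BMP and SMAD genes, 20 had an open promoter in both replicates (95.2%, against 64.3% of all protein-coding genes). Their median of 2.22 was below the 2.86 of all genes. The strongest were Bambi, a decoy receptor, at 4.46 and 6.33, Smad4, the common SMAD, at 4.43 and 5.89, and Smad1, a BMP-specific SMAD, at 4.12 and 5.32. Fst, an antagonist, had 0.559 in replicate 1 alone. The BMP ligands were low: Bmp2, Bmp4, Bmp6 and Bmp7 had means of 0.837 to 1.15. All 9 E protein cofactors had an open promoter in both replicates, again beside 64.3% of all genes, with a median of 3.31. Cbfa2t2, a corepressor of the ETO family, had 3.98 and 5.34, and the acetyltransferases Crebbp and Ep300 had 4.43 and 4.24, and 3.46 and 4.25.

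**Figure D4:**
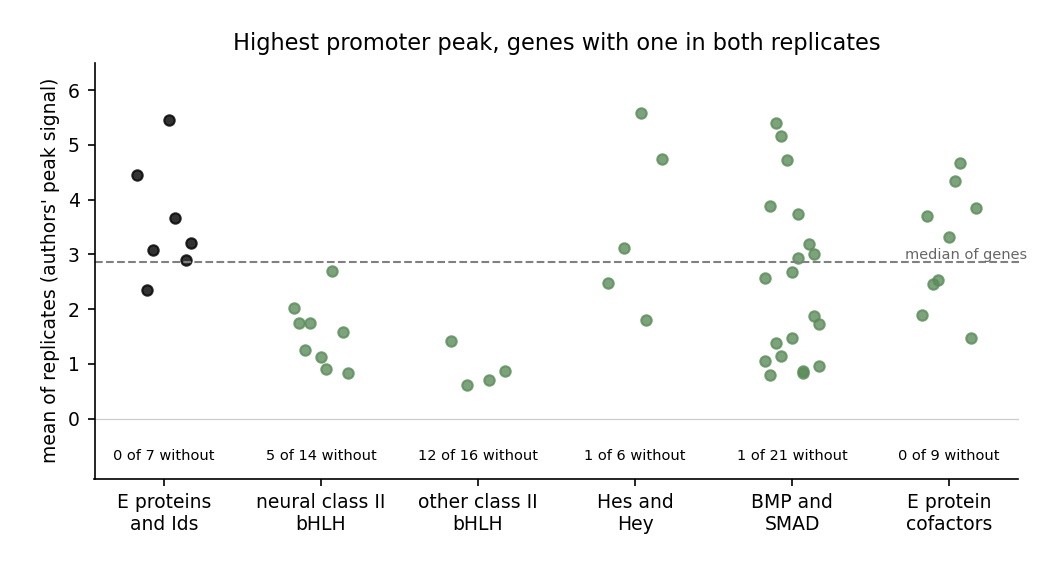
Mean signal of the highest promoter peak (vertical axis, the authors' value per peak) for genes whose promoter was open in both replicates, by gene list. The numbers under the points count genes without one in both replicates, and the dashed line is the median of all genes, 2.86. The 9 neural class II bHLH genes all lie below the line, while 6 of the 7 E protein and Id genes lie above it. Of these, Id4 is only just above, at 2.89, with replicates of 2.31 and 3.46. With promoters of 500 bp either side Id1 fell to 1.49. The Tcf4 point is the mean of 2 different peaks.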

How the data were processed

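DNase-seq of 2 biological replicates was used. Per the labels, each deposited file came from an alignment of 1 library to mm10. The aligner, like the peak and footprint callers, is not given in the sources used here. The authors deposited a signal value per peak, with no stated normalization, and p-value columns that hold false discovery rates, 0.01 for each footprint and under 0.05 for each cut-rate stretch. The longer of the 2 peak lists of each replicate was used. Genes and all transcript start sites came from GENCODE M21, and a gene's promoter value was its highest peak overlapping 1 kb either side of any start. Sites, clusters, footprints and words were counted with python 3.11.15, numpy 2.4.6 and scipy 1.17.1, in code tested on simulated data. Intervals are exact 95% binomial. Depth is unknown, since the files give no read counts. With 1 group no comparison between conditions and no significance test was possible, so values are descriptions. The members, gene lists and alternatives were chosen with earlier results of these data known. From each list the text names the 3 highest genes open in both replicates, up to 3 seen in 1 replicate and the first 3 with none. The BMP ligands were named after their values were seen, as were the third site of Tcf4 and the third of Id2 and Id3 outside promoters. Printed sequences are bases outside exons from the strongest shared promoter peak, from the strongest shared peak elsewhere with an E-box near footprints of both replicates, or, for Id3, from its strongest shared peak outside promoters and exons with footprints in both.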

Additional observations from a re-analysis of the deposited data

How the results depend on the processing

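All 7 genes kept a promoter peak in both replicates with the shorter peak lists, with promoters of 500 or 2500 bp either side, and with the stronger part of each list, and had one in either replicate alone. Counts moved more. The 33 shared sites outside promoters became 17 with the shorter lists, 19 in the gene bodies alone and 57 with 50 kb either side, and 49 to 75 with 1 replicate left out, which then needs no second replicate. With the shorter lists Tcf4 kept 6 sites in place of 19. Id2 had 0 in the gene body alone in place of 5, and 6 with 50 kb either side, where Id1 had 7 and Id3 had 8. The 47 shared promoter footprints fell to 4 when only identical intervals counted, and 1 replicate alone gave 109 to 123. The 13 of 30 open start-site clusters became 24 of 51 when starts were merged within 100 bp and 5 of 20, a lower share, when merged within 2000 bp. The pooled share of footprints with CANNTG, 8.83%, was 4.24% with no bp added and 12.9% with 10 bp. With promoters of 500 bp the value of Id1 was 1.49, which put it below Id3 at 2.35. No paired analysis was possible because there is 1 group. With 2 replicates and no read depth, a site missing from 1 replicate cannot be told from a site below its threshold, and the value per peak limits comparisons of strength between replicates.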

Other observations

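Peak signal and the deposited false discovery rate did not rank Tcf4 sites alike. In the run of 20 sites seen in replicate 1 alone, signals of 0.120 to 0.544 came with lowest rates per site whose −log10 reached 32.0. In the run of 8 sites from 178 kb, signals of 0.629 to 2.29 came with a −log10 of at most 6.98. The cause was not tested.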
